A study of Mus musculus with 28 samples.

Results

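The 9 genes described here, Men1, Rfx5, Dvl1, Fuz, Map4k2, Fhod1, Wipf2, Tcirg1 and Ctsa, are genes named by the study, mainly through its PCR primers for introns, that are not lineage markers. They were taken as a fixed list of symbols and joined to the files by Entrez gene number. All 9 had a value among the 15384 genes of the RNA-seq table. None of the 9 is itself a splicing factor, and retention of their introns was not analysed here, so the genes are described by their roles in transcription, signalling, the actin cytoskeleton and the lysosome. All samples were from the mouse embryonic stem (ES) cell line E14, grown with serum and leukaemia inhibitory factor. For RNA-seq, 4 control libraries came from cells given lentiviral vectors with a scramble shRNA and 4 KD libraries from cells given a pair of shRNAs against Ssrp1. Both groups were selected with 2 µg/ml puromycin for 24 h, beginning 48 h after transfection, and ERCC spike-in RNA was added to the total RNA. Untreated E14 cells were used for 2 libraries of chromatin RNA and for ChIP-seq of SSRP1 and SUPT16.

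SSRP1 and SUPT16 together form FACT, a histone chaperone that loosens and rebuilds nucleosomes as RNA polymerase II passes. Menin and RFX5 act in the nucleus, menin as a scaffold of histone H3K4 methyltransferase complexes and RFX5 as a DNA-binding protein of MHC class II promoters. Dishevelled proteins carry the Wnt signal inwards from frizzled receptors, FUZ serves planar polarity and the assembly of cilia, and MAP4K2 is a kinase at the head of stress-activated cascades. FHOD1 is a formin and WIPF2 a partner of the WASP proteins, both of which act on actin filaments. TCIRG1 is a membrane subunit of the proton pump that acidifies lysosomes, and CTSA is a lysosomal protease that also protects other lysosomal enzymes.

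The targeted gene checked the labels. Ssrp1 measured 223 to 261 in the control libraries and 24.1 to 28.9 in the KD libraries, whereas Supt16 measured 296 to 346 and 481 to 529. These values are reads per gene scaled by the authors to library size, where 1 read is worth between 0.0580 and 0.179. The libraries held 4602278 to 6680919 reads on genes in control and 9433193 to 19856032 in KD, so the KD values rest on more reads. Each of the 9 genes had 65 to 1436 reads in a library. The summed level of 10 ES cell markers was 1709 to 1836 in control and 4915 to 5400 in KD, and 7 of the 10 were called higher. Of 5 measured fibroblast markers 4 were called lower (sum 48.3 to 59.9 in control, 13.7 to 15.7 in KD), and of 5 measured primitive endoderm markers also 4 (54.2 to 80.5 against 19.03 to 24.3). Neural markers summed to 83.7 to 107 in control and 145 to 155 in KD, with 1 of 5 measured called higher and 2 lower, and trophectoderm and epithelial markers to 938 to 1270 and 732 to 779, with 2 of 5 lower. The fibroblast markers Dcn and Lum had no row in the table. All these sums and calls are relative to library size, where 8.07% of all genes were called higher and 20.6% lower. They are not given relative to spike-ins. The part of these markers in the results for the 9 genes was not tested, and in bulk RNA fewer cells of a type cannot be told apart from less RNA per cell.

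The first question was whether expression of the 9 genes differed between KD and control. A gene was called when limma gave an absolute log2 fold change above 1 and a Benjamini-Hochberg adjusted p below 0.01. Of the 9 genes, Ctsa was called higher and, relative to library size but not to spike-ins, Wipf2 and Tcirg1 were called lower, which is 3 of 9 where 28.6% of all genes were called (8.07% higher and 20.6% lower). Dvl1, Map4k2, Fhod1 and Rfx5 passed the threshold on the adjusted p but not that on the fold change, so that 7 of 9 passed on p alone, 2 with a positive and 5 with a negative change, as did 72.8% of all genes (35.4% and 37.3%). The control and KD libraries did not overlap for 6 of the 9, against 73.3% of all genes. These shares lie near those of all genes. With 4 against 4 libraries, the exact two-sided permutation test cannot give a p below 0.0286. Each of those 6 genes reached it, as every gene without overlap must, so this p only restates the lack of overlap. The study's methods call the libraries of each group biological replicates without saying for RNA-seq whether each came from its own transfection, so the p-values measure the spread between these libraries.

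**Figure D1:**
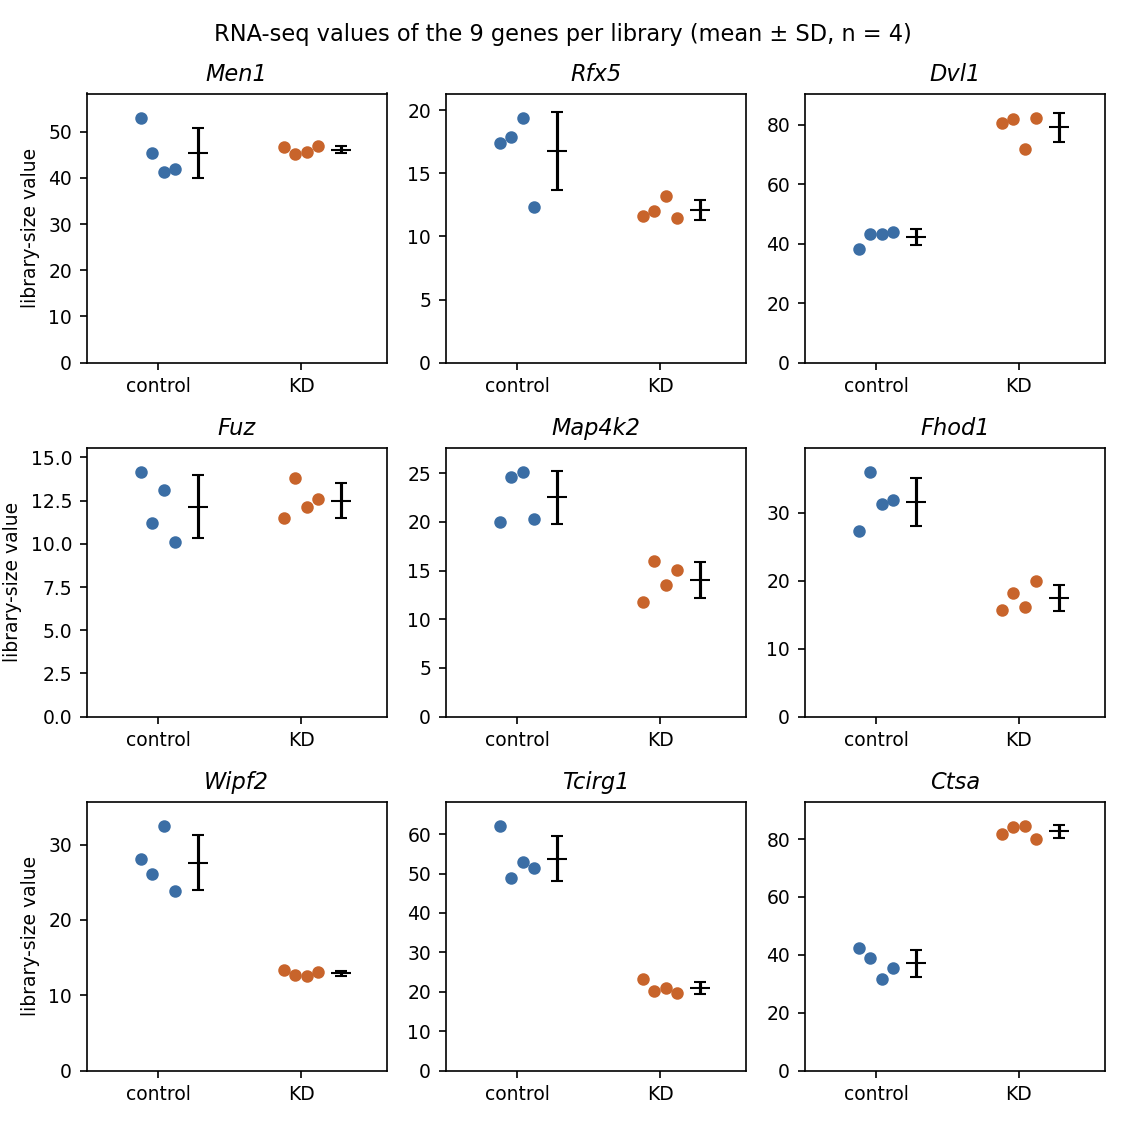
Library-size value (vertical axis, from 0) of each of the 9 genes in 4 control and 4 KD libraries, 1 point per library, with the mean and SD as a bar at the right of each group. Ctsa and Dvl1 lay higher in all 4 KD libraries, Map4k2, Fhod1, Wipf2 and Tcirg1 lay lower in all 4, and Men1, Rfx5 and Fuz overlapped; in the spike-in scaling the groups of Map4k2, Fhod1, Wipf2 and Tcirg1 overlapped too, and Men1 and Fuz lay higher in all 4 KD libraries.

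Among the nuclear proteins, Men1 was at nearly the same value in both groups. In control replicates 1 to 4 it measured 53.0, 45.4, 41.3 and 41.9, and in KD replicates 1 to 4 it measured 46.6, 45.3, 45.5 and 46.8. The KD libraries lay inside the range of the control libraries. The log2 fold change was 0.03 ± 0.08 (SE, n = 4 and 4, limma adjusted p = 0.747), with a 95% interval of -0.13 to 0.19. Men1 stands directly before Map4k2 on chromosome 19, with 355 bp between the annotated end of the first and the start of the second.

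Rfx5 measured 17.4, 17.9, 19.4 and 12.3 in control and 11.6, 12.0, 13.2 and 11.4 in KD. Control replicate 4 lay among the KD libraries, so the groups overlapped. The log2 fold change was -0.44 ± 0.13 (limma adjusted p = 0.00315), against 0.55 in the spike-in scaling, and the exact permutation test gave p = 0.0571. With 1 library left out, the limma adjusted p reached up to 0.0136, above the threshold of 0.01. The annotated exons of Rfx5 share 1471 bp, 35.1% of their length, with the gene B230398E01Rik on the other strand, which has no row in the RNA-seq table. The libraries were made with a directional kit, which keeps the strand of the RNA, but no source read here says whether the counting used it.

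Of the signalling genes, Dvl1 had the clearest difference. It measured 38.1, 43.4, 43.4 and 44.0 in control and 80.6, 81.8, 71.8 and 82.3 in KD. All KD libraries lay above all control libraries, by a log2 fold change of 0.90 ± 0.07, or 1.86-fold (limma adjusted p = 5.21e-12). The 95% interval of this log2 fold change, 0.75 to 1.04, includes the threshold of 1 that Dvl1 did not pass. The 250 bases before its annotated start, which hold no annotated exon, are shown because 71.2% of them are G or C, the highest share of the promoters printed here. Capitals mark CCGCCC, the reverse strand of the GC box GGGCGG, found 5 times.
Dvl1, chr4:155847152-155847401, GRCm38, + strand: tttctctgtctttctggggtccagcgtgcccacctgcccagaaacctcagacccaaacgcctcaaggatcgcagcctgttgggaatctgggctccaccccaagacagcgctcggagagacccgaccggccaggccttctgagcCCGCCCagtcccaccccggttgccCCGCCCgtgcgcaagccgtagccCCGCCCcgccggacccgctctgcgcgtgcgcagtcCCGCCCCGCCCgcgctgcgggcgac

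Fuz had the lowest library-size values of the signalling genes, before division by exon length. It measured 14.2, 11.2, 13.1 and 10.1 in control and 11.5, 13.8, 12.1 and 12.6 in KD. The groups overlapped throughout, with a log2 fold change of 0.05 ± 0.13 (limma adjusted p = 0.733) and a 95% interval of -0.22 to 0.31. With quantile scaling it was at 0.49 (limma adjusted p = 0.00917), and in the spike-in scaling at 1.04.

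Map4k2 measured 20.0, 24.6, 25.1 and 20.2 in control and 11.7, 15.9, 13.5 and 15.0 in KD. Every KD library lay below every control library. The log2 fold change was -0.66 ± 0.12 (limma adjusted p = 9.54e-06), with a 95% interval of -0.90 to -0.42, against 0.34 in the spike-in scaling.

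Both actin regulators lay lower in KD relative to library size. Fhod1 measured 27.2, 36.0, 31.2 and 31.9 in control and 15.7, 18.2, 16.2 and 19.9 in KD, without overlap. Its log2 fold change was -0.83 ± 0.10 (limma adjusted p = 2.98e-08), against 0.17 in the spike-in scaling. Wipf2, the gene with the longest exons of the 9 (7589 bp), measured 28.04, 26.2, 32.5 and 23.8 in control and 13.3, 12.7, 12.6 and 13.05 in KD. The KD libraries were close together and all below the control libraries. Wipf2 fell by 1.06 ± 0.11 on the log2 scale (limma adjusted p = 6.84e-10), only just past the threshold. The call was lost without control replicate 3, with a log2 fold change of -0.98.

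Relative to library size, and before correction for exon length, the lysosomal genes had the largest differences of the 9, with opposite signs. Tcirg1 measured 62.1, 48.9, 52.9 and 51.3 in control and 23.2, 20.3, 20.9 and 19.8 in KD. It fell by 1.33 ± 0.09 on the log2 scale (limma adjusted p = 1.07e-13), so that control lay 2.52-fold above KD. Ctsa measured 42.2, 38.9, 31.6 and 35.6 in control and 81.7, 84.2, 84.5 and 80.0 in KD. It rose by a log2 fold change of 1.15 ± 0.08, or 2.22-fold (limma adjusted p = 1.83e-13). Neither gene had overlapping groups.

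Exons of Ctsa share 495 bp with Pltp and 324 bp with Neurl2, both on the other strand, or 13.5% and 8.82% of the exon length of Ctsa. Relative to library size Pltp had a log2 fold change of -0.78 and Neurl2 of -0.65, both of opposite sign to Ctsa. Pltp measured 50.4 in control, above Ctsa, and 28.8 in KD, and Neurl2 measured 3.35 and 1.93. Tas1r3 shared 36 bp with Dvl1. Ap2a1 shared 252 bp, or 14.8% of the exon length of Fuz, and at 67.2 in control and 90.2 in KD was well above Fuz.

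The promoters of the called genes are shown so that their sequences can be compared. For Ctsa, whose promoter lies over exons of Neurl2, only 30 bases are printed, around the downstream one of its 2 start sites, at position 164833773. This start lies inside the gene, which is annotated from position 164832873. Both matches to TCACGTGA are in capitals. This palindrome, which contains CACGTG, is the core of the element bound by MiT/TFE factors at many lysosomal genes. It was present in 0.974% of 32851 RefSeq promoter windows of 300 bases. Of the 14 windows of the 9 genes it was present only in 1, that of Ctsa at this downstream start. The window at the first start of Ctsa held no match. For Tcirg1 and Wipf2 the 250 bases before the start are printed, and capitals mark GGGCGG or its reverse, and in Wipf2 also the E box CACGTG, the CCAAT box and the sequence AAGATGG.
Ctsa, chr2:164833758-164833787, GRCm38, + strand: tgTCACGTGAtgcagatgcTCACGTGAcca
Tcirg1, chr19:3907134-3907383, GRCm38, - strand: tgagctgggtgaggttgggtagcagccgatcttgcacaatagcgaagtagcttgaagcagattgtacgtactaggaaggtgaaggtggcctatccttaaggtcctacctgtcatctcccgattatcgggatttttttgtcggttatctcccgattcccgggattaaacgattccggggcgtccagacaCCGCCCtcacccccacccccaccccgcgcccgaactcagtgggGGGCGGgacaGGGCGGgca
Wipf2, chr11:98863348-98863597, GRCm38, + strand: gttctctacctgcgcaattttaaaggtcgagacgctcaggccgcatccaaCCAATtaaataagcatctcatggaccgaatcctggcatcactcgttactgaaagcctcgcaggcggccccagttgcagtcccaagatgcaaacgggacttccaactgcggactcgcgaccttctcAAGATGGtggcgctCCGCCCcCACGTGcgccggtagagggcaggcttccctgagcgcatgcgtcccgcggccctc

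Some of the 9 genes have more than 1 window, so matches are counted over their 14 windows. GGGCGG was found on either strand in 35.7% of all windows and in 11 of these 14. The 11 belonged to 7 of the 9 genes, all but Rfx5 and Ctsa. CCAAT was found in 37.4% of all windows and in 7 of the 14, at Men1, Rfx5, Map4k2, Wipf2 and Tcirg1. CACGTG was found in 7.15% of all windows and in 2 of the 14, at Ctsa and Wipf2. AAGATGG was found in 6.34% and in 2 of the 14, at Fuz and Wipf2, and TGACGTCA in 1.79% and in 1, at Dvl1. TATAAA was found in 13.6% of windows and in none of the 9 genes. A match describes the letters of a window only.

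The choice of scaling decided several of these directions. The authors also deposited the values scaled to spike-ins, in which the median log2 fold change of all genes was 0.95 in place of -0.03. In that scaling the median of the 9 genes was 0.55 in place of -0.44, Ctsa, Dvl1, Men1 and Fuz were called higher, and none was called lower, which is 4 of 9 where 55.1% of all genes were called (48.1% higher and 7.03% lower). Control and KD libraries did not overlap for 4 of the 9, against 58.0% of all genes. Ctsa measured 28.4, 23.3, 21.2 and 31.8 in control and 75.2, 156, 137 and 120 in KD, with a log2 fold change of 2.17 ± 0.29 (limma adjusted p = 7.29e-13). Dvl1 followed with 1.91 ± 0.29 (limma adjusted p = 2.23e-10), whereas Men1 and Fuz, both at 1.04 ± 0.29, lay close to the median of all genes.

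Of the genes that were lower relative to library size, Rfx5, Map4k2 and Fhod1 changed sign in the spike-in scaling, at 0.55, 0.34 and 0.17, and none of these passed the threshold on the adjusted p when all libraries were used. Wipf2 was at -0.06 ± 0.29 (limma adjusted p = 0.859). Tcirg1 measured 41.7, 29.2, 35.5 and 45.9 in control and 21.4, 37.6, 33.7 and 29.7 in KD, so that the groups overlapped, with a log2 fold change of -0.32 ± 0.29 (limma adjusted p = 0.306). Relative to the median of all genes Tcirg1 was at -1.27 in this scaling and at -1.30 in the library-size scaling, and Ctsa at 1.22 and 1.19. Both scalings apply 1 factor per library to the same reads, so these values must nearly agree and are no second measurement.

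The spike-in scaling spread the KD libraries widely. KD replicate 1 was the lowest KD library for all 9 genes, at 0.438 to 0.635 of the mean of the other KD libraries, and its summed value over all genes was 0.557 of theirs. With that library left out, Ctsa was at 2.38, Dvl1 at 2.11, Tcirg1 at -0.16 and Wipf2 at 0.13, a change of sign for Wipf2. Rfx5 was then at 0.77 (limma adjusted p = 0.00039) and Map4k2 at 0.62 (limma adjusted p = 0.0037), both past the threshold on the adjusted p, and Fhod1 was at 0.43 (limma adjusted p = 0.047).

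**Figure D2:**
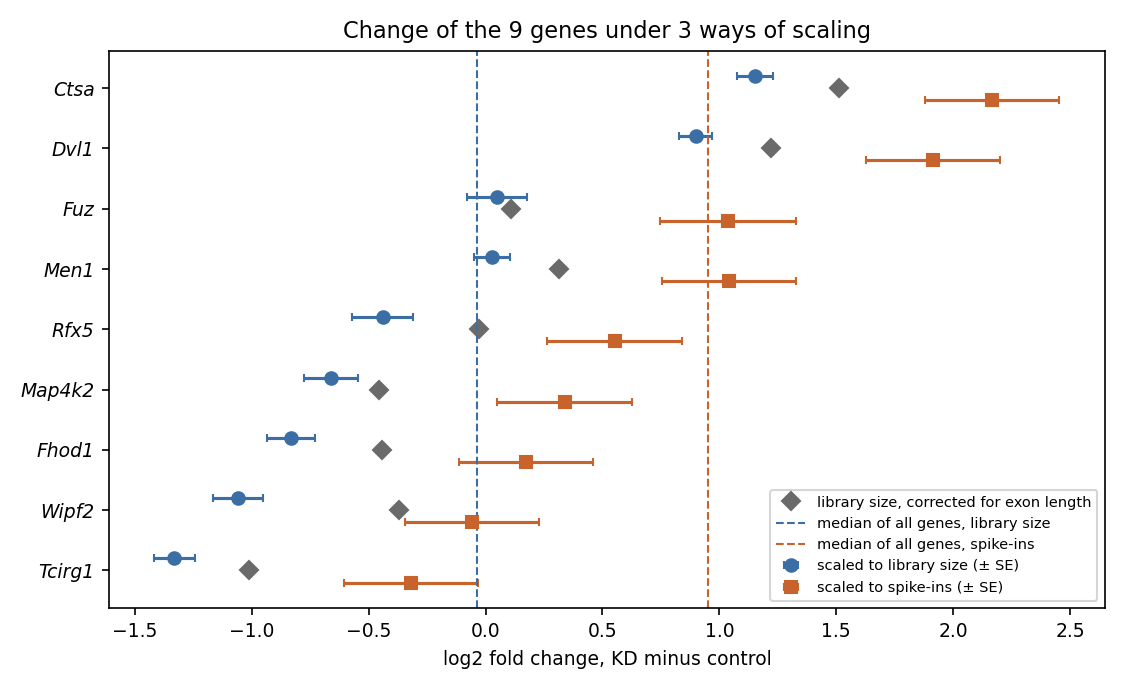
Log2 fold change of KD minus control (horizontal axis) for the 9 genes, from values scaled to library size (circles ± SE), from the same values corrected for exon length (diamonds) and from values scaled to spike-ins (squares ± SE); dashed lines give the median of all genes in the 2 scalings. The order of the genes is nearly the same in the 2 scalings, as it must be where each applies 1 factor per library. After the correction for exon length Wipf2 lies above Fhod1 and Map4k2, and Men1 above Fuz. Rfx5, Map4k2 and Fhod1 lie on opposite sides of 0 in the library-size and spike-in scalings.

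A ratio between 2 genes within a library does not depend on any 1 factor applied to that library, as in the 2 deposited scalings. Quantile scaling and the correction for exon length do change such ratios. The ratios of the 9 genes are given as a description, without p-values. Of 36 pairs, the groups did not overlap for 27 and overlapped for 9. The pairs share the same 9 genes, so they are not independent. Pairs of other genes were not counted, and of all single genes 73.3% did not overlap relative to library size. The pairs named here include those with the largest shift (Tcirg1 to Ctsa) and the smallest (Men1 to Fuz). The log2 ratio of Tcirg1 to Ctsa was 0.56, 0.33, 0.75 and 0.53 in control and -1.81, -2.05, -2.02 and -2.02 in KD, a shift of -2.52. Tcirg1 thus exceeded Ctsa in each control library and lay below it in each KD library. The log2 ratio of Dvl1 to Tcirg1 went from -0.70, -0.17, -0.29 and -0.22 to 1.79, 2.01, 1.78 and 2.06. In contrast, the ratio of Dvl1 to Ctsa overlapped between the groups (means 0.19 ± 0.26 and -0.06 ± 0.12, SD), as did that of Men1 to Fuz (1.91 ± 0.18 and 1.88 ± 0.13).

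Long genes were lower in KD over the whole table, relative to library size. The genes of the length class of Fuz (1434 to 1838 bp of exon) had a median log2 fold change of 0.10, whereas those of the class of Wipf2 (6048 bp or more) had a median of -0.46. After the KD values were corrected for this trend, Wipf2 was at -0.37 and no longer called, Rfx5 was at -0.03 (limma adjusted p = 0.852), and Dvl1 was called at 1.22. Tcirg1 at -1.01 and Ctsa at 1.51 stayed called. The correction also moved the median of all genes, from -0.03 to 0.20. Without it, and relative to the median of their own length class, Rfx5 was at -0.29, Wipf2 at -0.60 and Dvl1 at 1.04. Tcirg1, Dvl1 and Ctsa share a length class (3176 to 3777 bp), whose median was -0.15.

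The order of the genes by level also differed between the groups. Values were divided by exon length for this, in units per kilobase. In control, the median level per kilobase was highest for Tcirg1 (15.8) and Men1 (14.4), followed by Dvl1 (12.96), Ctsa (10.1), Map4k2 (9.09), Fhod1 (7.99), Fuz (7.15), Rfx5 (4.22) and Wipf2 (3.57). Ranges of the 4 libraries overlapped between all neighbours in this order except between Men1 and Dvl1 and between Fuz and Rfx5. Among all genes with a value these levels lay between percentiles 24.1 and 70.2. In KD, Dvl1 (24.3) and Ctsa (22.6) had the highest median level per kilobase, Men1 (15.1) came next, and Tcirg1 (6.23) was behind Fuz (7.27).

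The gene with the most similar pattern was sought for each of the 9 among 10709 other genes with a symbol and a mean value of at least 10, as the smallest root mean square difference of centred log2 values over the 8 libraries. Men1 lay nearest to Glg1 (0.03), Dvl1 to Mov10 (0.04), and Ctsa to Wdhd1 (0.04). Fuz lay nearest to Xrcc3, Fhod1 to Il17ra, and Wipf2 to Acox3 (all 0.06). Rfx5 lay nearest to Zscan18, Map4k2 to Kdelc2, and Tcirg1 to Pros1 (all 0.07).

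To place each gene among its partners, 9 lists of complexes and pathways around them were examined, none of which includes the 9 genes. Of 141 listed genes 133 were measured, and 7 were called higher and 23 lower, where 8.07% and 20.6% of all genes were. The median log2 fold change over the lists was -0.10, against -0.03 for all genes. In the spike-in scaling 65 were called higher and 8 lower, where 48.1% and 7.03% of all genes were.

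**Figure D3:**
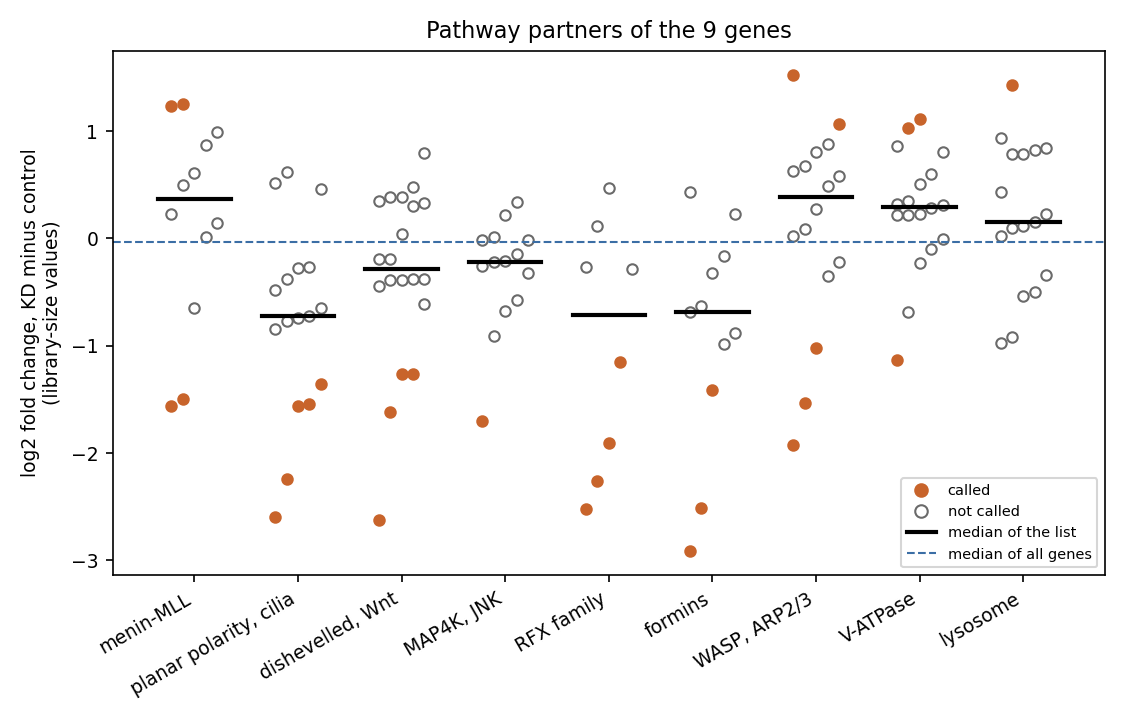
Log2 fold change, KD minus control, from library-size values (vertical axis) of the measured genes of 9 lists around the 9 genes, 1 point per gene, filled where called. Black bars give list medians, which range from -0.72 for planar polarity and RFX genes to 0.38 for WASP and ARP2/3 genes (0.28, 0.27 and 1.37 in the spike-in scaling), and the dashed line gives the median of all genes, -0.03.

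Around menin, 2 of 12 genes were called higher and 2 lower (median 0.37; 1.39 in the spike-in scaling). Kmt2a and Kmt2d, which encode H3K4 methyltransferases with very long transcripts, fell, with log2 fold changes of -1.498 and -1.562, and after the correction for exon length were at -0.39 and -0.34. In the spike-in scaling they were at -0.48 and -0.54 and not called. Kmt2b, the paralogue of Kmt2a, was at -0.65 relative to library size and at 0.37 in the spike-in scaling. Psip1, whose product tethers menin and MLL1 to chromatin, rose from 77.5 ± 6.46 to 185 ± 6.10 (SD, n = 4 each), by a log2 fold change of 1.26. Dpy30, a shared subunit of these complexes, rose by 1.23. Men1 itself, at 0.03, lay between them.

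Around RFX5, 4 of 8 measured genes were called lower and none higher (median -0.72; 0.27 in the spike-in scaling). Ciita, which encodes the class II transactivator, fell from 14.3 ± 5.30 to 1.99 ± 0.53, and Rfx4 from 12.6 ± 3.35 to 2.16 ± 0.16. The partners of RFX5 in its complex were not called. Rfxank was at -0.28 and Rfxap at 0.47, and Rfxank was at 0.71 in the spike-in scaling.

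The Wnt list had 0 of 20 genes called higher and 4 lower in limma, and by adjusted p alone 7 had a positive and 9 a negative change, where 35.4% and 37.3% of all genes did (median -0.29; 0.69 in the spike-in scaling). The dishevelled paralogues differed from one another. Beside Dvl1 at 0.90, Dvl2 was at 0.04 and Dvl3 fell by 1.26, from 19.7 ± 2.28 to 7.94 ± 0.82. Fzd1, a receptor, fell by 2.62, and Axin2, a scaffold of the destruction complex and a target of the pathway, fell by 1.62. In the spike-in scaling, Dvl2 was at 1.05, Dvl3 at -0.27, Fzd1 at -1.79 and Axin2 at -0.65.

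Around FUZ, 5 of 17 measured genes of planar polarity and cilia were called lower and none higher (median -0.72; 0.28 in the spike-in scaling). The strongest were Celsr2, which fell from 32.2 ± 6.13 to 4.91 ± 0.89, and Celsr3, from 34.2 ± 4.51 to 6.90 ± 1.34, both atypical cadherins with long transcripts. After the correction for exon length they were still at -1.73 and -1.33. Intu and Wdpcp, whose products act with FUZ in cilium assembly, were at -0.85 and -0.48 and were not called, and at 0.16 and 0.47 in the spike-in scaling.

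In the MAP4K and JNK list, 1 of 14 measured genes was called, Jun, which fell from 26.3 ± 2.71 to 7.76 ± 0.58 (log2 fold change -1.70), and which was at -0.71 and not called in the spike-in scaling (list median -0.22; 0.80 in the spike-in scaling). The paralogues of Map4k2 were not called: Map4k1 was at -0.26, Map4k3 at -0.58, Map4k4 at -0.01 and Map4k5 at -0.91. In the spike-in scaling all 4 were above 0, from 0.11 to 1.01.

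Among formins, 3 of 11 measured genes were called lower and none higher (median -0.69; 0.33 in the spike-in scaling). Fmnl1 fell from 14.1 ± 2.93 to 1.44 ± 0.37 and Fmn1 from 18.5 ± 4.89 to 2.79 ± 0.66. Fhod3, the paralogue of Fhod1, was at 0.23 and was not called. In the WASP and ARP2/3 list, 2 of 16 genes were called higher and 3 lower (median 0.38; 1.37 in the spike-in scaling). Wipf1 and Wipf3, the paralogues of Wipf2, fell, with log2 fold changes of -1.54 and -1.92, in the same direction as Wipf2, and were at -0.62 and -1.003 in the spike-in scaling. Wasl, which encodes N-WASP, was at -0.22 and was not called. The ARP2/3 subunit genes Arpc1b and Arpc5l rose by log2 fold changes of 1.53 and 1.06.

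Of 18 subunit and accessory genes of the V-ATPase, 2 were called higher and 1 lower (median 0.30; 1.31 in the spike-in scaling). None of the 3 measured paralogues of Tcirg1 was called. Atp6v0a1 was at -0.69 without overlap between groups (limma adjusted p = 4.79e-06), Atp6v0a2 at -0.22 and Atp6v0a4 at -0.10, and in the spike-in scaling they were at 0.32, 0.79 and 0.89. Atp6v1g1 and Atp6v1f rose by 1.11 and 1.03, and Atp6v0e2 fell by 1.13 but was at -0.18 and not called in the spike-in scaling. Of 17 measured lysosomal genes 1 was called higher and none lower (median 0.15; 1.16 in the spike-in scaling). It was Lamp1, a protein of the lysosomal membrane, which rose from 188 ± 11.1 to 509 ± 5.06. The enzymes that CTSA protects were not called relative to library size, with Neu1 at 0.79 and Glb1 at 0.44, of the same sign as Ctsa. In the spike-in scaling they were at 1.79 and 1.45, where the median of all genes was 0.95.

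FACT binding was examined at the 9 genes next. The deposited lists hold 10114 SSRP1 peaks and 3855 SUPT16 peaks, called by the authors on 2 replicates together, with no heights, so the depth behind them is unknown. A SSRP1 peak lay within 1000 bp of an annotated start site for 4 of the 9 genes, Men1, Map4k2, Fhod1 and Ctsa, against 25.4% of all genes with a value. A SUPT16 peak did so for 1, Fhod1, against 15.3% of all genes.

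At Ctsa the peak was the longest of these, 1764 bp at chr2:164832865-164834628, and covered the start. It was assigned by the authors to both Ctsa and Neurl2. At Fhod1, a peak of 490 bp (chr8:105347159-105347648) began 322 bp downstream of the start, inside the gene with no exon under it, and another of 1274 bp assigned to Slc9a5 ended 267 bp upstream. The SUPT16 peak near Fhod1, 280 bp long and 981 bp upstream, was also assigned to Slc9a5. At Map4k2 a peak of 294 bp (chr19:6341287-6341580) began 37 bp after the start.

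At Men1, peaks of 294 bp lay 455 bp and 2905 bp upstream of the start, and none lay over the gene. The nearer of them is shown as a sequence under a SSRP1 peak that holds no annotated exon and lies outside any gene. Capitals mark ATTGG, the reverse of CCAAT.
Men1 SSRP1 peak, chr19:6334231-6334524, GRCm38, + strand: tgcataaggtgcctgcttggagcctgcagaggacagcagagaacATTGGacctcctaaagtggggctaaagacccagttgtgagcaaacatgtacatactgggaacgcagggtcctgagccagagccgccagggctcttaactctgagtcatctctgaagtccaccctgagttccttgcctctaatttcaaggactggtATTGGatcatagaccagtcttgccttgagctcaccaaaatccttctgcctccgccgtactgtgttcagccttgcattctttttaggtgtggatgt

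No peak of either list lay within 1000 bp of a start of Rfx5, Dvl1, Fuz, Wipf2 or Tcirg1, which says only that none passed the authors' threshold. Relative to library size, genes with and without a SSRP1 peak were found on both sides. Of the genes with a peak, Ctsa was called higher, Map4k2 and Fhod1 were lower without a call, and Men1 was near 0. Of those without, Wipf2 and Tcirg1 were called lower, Rfx5 was lower and Dvl1 higher without a call, and Fuz was near 0. In the spike-in scaling, where the median of all genes was 0.95, all genes with a peak were above 0. They were at 2.17 (Ctsa), 1.04 (Men1), 0.34 (Map4k2) and 0.17 (Fhod1). Those without were at 1.91 (Dvl1), 1.04 (Fuz), 0.55 (Rfx5), -0.06 (Wipf2) and -0.32 (Tcirg1).

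**Figure D4:**
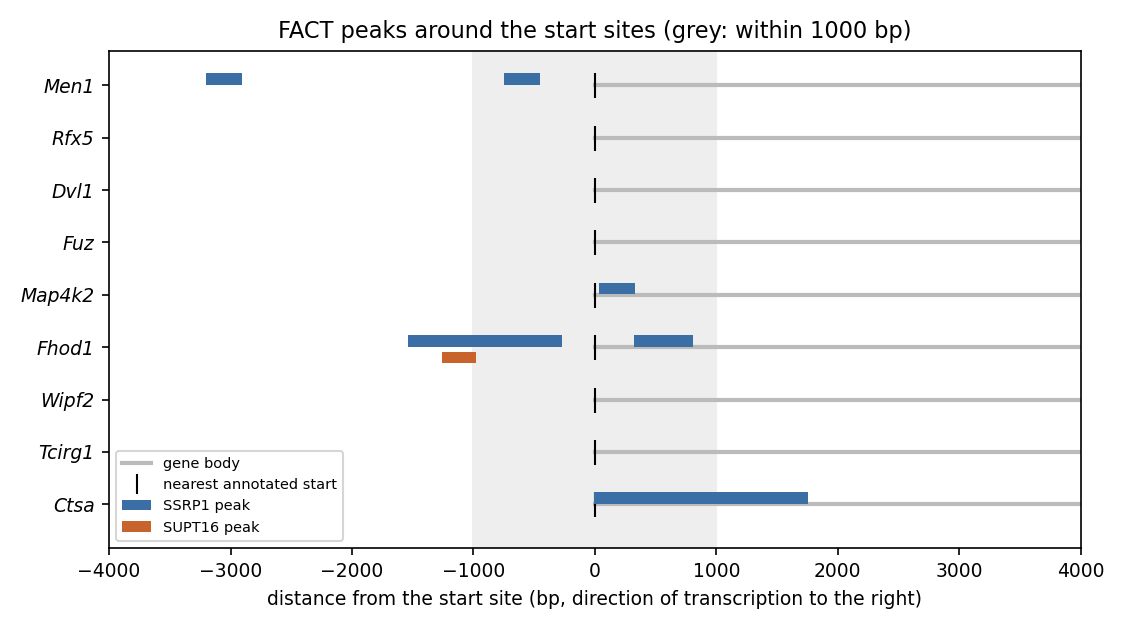
Peaks of SSRP1 (blue) and SUPT16 (orange) around the nearest annotated start site of each of the 9 genes, by distance in bp (horizontal axis, direction of transcription to the right), with the gene body as a grey line and the 1000 bp window shaded. Peaks lie in the window at Men1, Map4k2, Fhod1 and Ctsa and at none of the other 5 genes.

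Chromatin RNA of untreated E14 cells was set beside the control RNA-seq. The 2 libraries held 3441643 and 3393923 counts, of which 5.56% and 9.35% fell on protein-coding genes and 63.8% and 60.7% on snoRNAs, so the counts of the 9 genes were small. Ctsa had 19 counts in the first library (exact Poisson 95% interval 11.4 to 29.7) and 37 in the second (26.1 to 51.0). Dvl1 had 15 (8.40 to 24.7) and 43 (31.1 to 57.9). Tcirg1 had 8 and 21. The other genes had 2 to 7 counts in the first library and 7 to 17 in the second. The intervals cover counting error only.

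Per kilobase of exon, Ctsa was at percentiles 79.6 and 82.2 of all genes in the chromatin libraries and at 57.3 in control RNA-seq. Dvl1 was at 76.2 and 87.0 against 64.6, and Fuz at 70.1 and 59.0 against 46.2. For the other 6 genes, the percentile of the mean of the 2 libraries differed from that in control RNA-seq by -5.43 (Men1) to 5.06 (Rfx5) points. The counts are of reads on exons, so they do not measure introns.

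**Figure D5:**
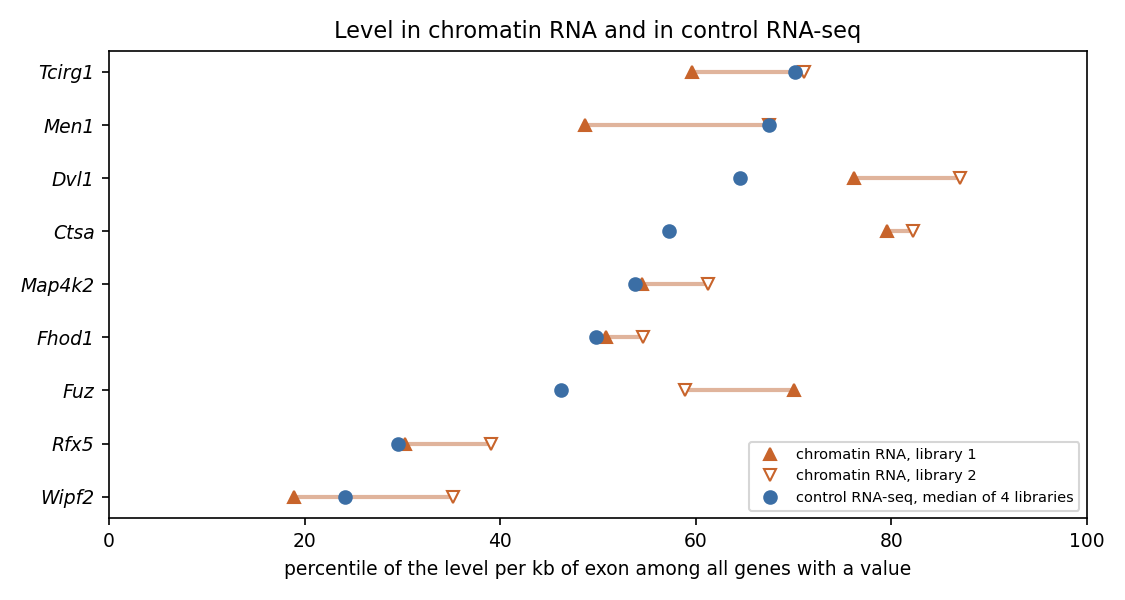
Percentile of the level per kilobase of exon among all genes with a value (horizontal axis) for the 9 genes, in each of 2 chromatin RNA libraries (triangles, joined by a line) and as the median of 4 control RNA-seq libraries (circles). Ctsa, Dvl1, Fuz, Rfx5, Map4k2 and Fhod1 lie to the right of their RNA-seq percentile in both chromatin libraries, with Rfx5, Map4k2 and Fhod1 closer to it.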

How the data were processed

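RNA-seq, chromatin RNA-seq and ChIP-seq files were used. The authors aligned RNA-seq reads to mm10 with STAR (2.4.1b in the methods, 2.5.1b in the processing notes), obtained counts with featureCounts and kept genes above 1 CPM. The deposited values are a signal, gene counts divided by 1 factor per library, in 2 scalings, to library size and to ERCC spike-ins. Every library-size value was a whole number of reads (100% within 0.1 reads). The authors deposited whole counts per gene for chromatin RNA, and peaks called with PePr after Bowtie2 2.2.6. Deposited tables of the authors' own comparisons (KD against control, neural precursors against ES cells, exon usage) hold fold changes and p-values and were not used. Intron retention, MNase-seq, ATAC-seq and NET-seq were not analysed here.

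Log2(value + 0.5) was compared with limma 3.58.1 (R 4.3.3) with a mean-variance trend over all 15384 genes, with Benjamini-Hochberg adjustment. Fold changes are on this scale and understate those of low genes. On recovered reads edgeR 4.0.16 called 4711 genes and DESeq2 1.42.0 called 4762, against 4405. In simulated data for this comparison on 15384 genes each tool recovered 199 of 200 changed genes. Recovery of genes with a log2 fold change near the threshold, such as Dvl1 and Wipf2, or below it, such as Map4k2, was not tested. Chromatin counts were divided by exon length and ranked. Gene models, start sites and sequences came from RefSeq for GRCm38 (mm10), and all 9 genes were matched. Samples were grouped by their labels. The alternatives tried were other pseudocounts, filters, scalings and tools, a correction for exon length, a replicate block, leaving out each library, and other peak windows. The 9 genes, the lists and the tests were chosen with earlier results of these data known. The genes named from each list were the relatives and direct partners of the 9 genes, with the called genes of largest change.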

Additional observations from a re-analysis of the deposited data

Results flagged for a closer look

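In 36 groups of 4 libraries, those of the 9 genes in either scaling, 1 library stood far from the other 3 in a pair of groups, both of Dvl1 in the library-size scaling. Control replicate 1 measured 38.1, where the nearest other control library measured 43.4. KD replicate 3 measured 71.8, where the nearest other KD library measured 80.6. About 1 in 20 groups would be so marked by chance.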

How the results depend on the processing

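Scaling moved the results most. With spike-in scaling 8476 genes were called, 7394 higher and 1082 lower (87.2% higher, against 28.2%). Log2 fold changes were then 1.04 for Men1, 0.55 for Rfx5, 1.91 for Dvl1, 1.04 for Fuz, 0.34 for Map4k2, 0.17 for Fhod1, -0.059 for Wipf2 and -0.32 for Tcirg1, and 65 genes of the lists were called higher and 8 lower. Without KD replicate 1, an alternative chosen after seeing the data, that scaling gave 9441 calls (8607 higher, 834 lower), with Men1 at 1.25, Rfx5 at 0.77, Dvl1 at 2.11, Fuz at 1.28, Map4k2 at 0.62, Fhod1 at 0.43, Wipf2 at 0.13 and Tcirg1 at -0.16. With quantile scaling 1656 genes were called lower (47.8% of calls higher), 1 of the 9 genes was called, and Men1 was at -0.19, Fuz at 0.49 (limma adjusted p = 0.00917), Wipf2 at -0.95 and Ctsa at 0.91. With the exon length correction 42.4% of calls were higher, and the median of all genes was 0.20. Dvl1 was then at 1.22 and Wipf2 at -0.37, and 13 genes of the lists were called higher and 13 lower. The cause of these shifts was not tested. By adjusted p alone 11192 genes (5447 higher, 5745 lower), 7 of the 9 and 48 and 52 genes of the lists passed. A pseudocount of 2 put Wipf2 at -0.98, and a minimum mean of 5 left 2024 genes called lower, with fewer genes tested. Leaving out 1 library gave -0.015 to 0.10 for Men1, -0.031 to 0.12 for Fuz and -1.13 to -0.98 for Wipf2, whose call was lost without control replicate 3. For Rfx5 it gave -0.58 to -0.37, with a limma adjusted p of up to 0.0136. Among peaks of at least 500 bp, 2 of the 9 genes had one of SSRP1 near a start. The median chromatin RNA percentile, 62.0, was 54.6 to 61.3 in single libraries, where 2 to 43 counts per gene limit it.

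Samples of the same replicate number did not deviate together (r -0.06 to 0.02), so the numbers were not taken as pairs. With the replicate block 4405 genes were called (1242 higher, 3163 lower), as without it, and 3 of the 9 genes.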
